A study of Mus musculus with 61 samples.

Results

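The unstimulated spleens of mice carrying STAT5B Y665F were compared with those of mice carrying STAT5B Y665H. The libraries were chosen by their labels alone, which give the tissue as spleen, the genotype as STAT5B-Y665F (7 libraries) or STAT5B-Y665H (5 libraries) and no culture. These are 12 of the 61 libraries of the series. All came from C57BL/6 mice at an age of 2 months, with C57BL/6N given as the source of the edited eggs in the study's methods, and 4 WT spleens of the same strain and age stand beside them. The labels give no zygosity and do not say whether an animal gave more than one library, so that the p-values measure the spread between these libraries. The study's own text calls the material T cells, splenocytes and spleen tissue in different places. B cell, erythroid and macrophage genes were measured in every library, as given below, so the values are those of a mixture of spleen cells.

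STAT5B is a transcription factor that waits in the cytoplasm until a Janus kinase at an engaged cytokine receptor phosphorylates it. Its SH2 domain then holds another STAT5 molecule, and the dimer moves to the nucleus and binds DNA at palindromic sites. In lymphocytes it acts downstream of the receptors of IL-7, IL-15 and IL-2, which maintain T cells, regulatory T cells and natural killer (NK) cells. In the blood-forming lineages it acts downstream of receptors for erythropoietin and other growth factors. The spleen of a mouse holds all of these cells, since it filters blood, houses B and T lymphocytes and also makes red cells and granulocytes.

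Both lines were made by changing the codon of the tyrosine at the position that the names Y665F and Y665H give, which lies in the SH2 domain. In the GRCm38 annotation of GENCODE this codon, TAC, is at chr11:100787291-100787293 on the minus strand, within coding exon 16 of the 19 exons of Stat5b (exon at chr11:100787209-100787379). The same guide was used for both lines, with Cas9 and a donor oligonucleotide for Y665F and with an adenine base editor, which makes A-to-G changes, for Y665H. The guide, the reference over the length of the donor and the donor are shown because this codon is the designed difference between the groups compared. In the guide the capitals mark the PAM, and in the other sequences the codon.
Guide with PAM, plus strand, chr11:100787287-100787309: tgaggtaattcaggtcccccAGG
Stat5b reference, transcript strand, chr11:100787232-100787364: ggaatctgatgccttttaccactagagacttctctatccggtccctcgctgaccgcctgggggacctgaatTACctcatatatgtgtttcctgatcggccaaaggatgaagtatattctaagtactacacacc
Y665F donor: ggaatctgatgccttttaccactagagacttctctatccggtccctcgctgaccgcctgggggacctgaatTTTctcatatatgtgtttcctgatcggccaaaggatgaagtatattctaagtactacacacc
Over its 133 bases the donor differed from the reference at 2 positions, A73T and C74T, counted from 1 at the 5′ end of the stretch. Both fall in that codon, and the donor sequence as listed holds no other difference. The study's methods also describe a silent C-to-G change meant to destroy the PAM, which the listed sequence does not hold, and which of the versions the mice carry cannot be read from these counts. The counts deposited per gene do not show which allele was read.

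Reads were counted per gene by the authors, and levels are given here as CPM, a gene's reads as a share of the library's total after TMM scaling. Each spleen library held between 24203179 and 43330536 reads on genes, so that 1 CPM stands for at least 24 reads. Between 54.88% and 63.5% of the reads in the files were listed without a gene. Xist, which is transcribed from the inactive X chromosome of female cells, was at 0.635 to 2.21 CPM and the Y-linked Ddx3y at 250 to 313 CPM in all 16 libraries. Stat5b itself was at 122, 98.7, 107, 102 and 98.6 CPM in Y665H replicates 1 to 5 and between 110 and 138 CPM in Y665F, a log2 difference of 0.21 (SE 0.08, adjusted p = 0.0533, edgeR quasi-likelihood test). This difference did not pass the test, and Y665H replicate 1 overlapped the Y665F range.

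Y665H replicate 1 stood apart from the other Y665H libraries. On the principal component that held 44.2% of the variance of the 500 most variable genes, Y665H replicates 2 to 5 lay between 18.92 and 33, replicate 1 at -0.9, the Y665F libraries between -19.37 and 5.32 and the WT libraries between -20.6 and -0.56. Y665F replicate 4 stood apart from its group on the next components, at 20.67 on the second (other Y665F libraries -13.36 to -4.27) and at -19.22 on the third (others -8.57 to 0.59). Where the number of genes called in a list changed without Y665H replicate 1, both numbers are given, and the plot of list medians shows every list both ways. Y665H replicate 2 had the highest heat shock genes and Y665H replicate 5 the highest fat cell genes of all 16, and the genes concerned are given below with those values.

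A gene was called when its adjusted p was under 0.05 and its log2 fold change beyond 1. Of 19418 genes tested, 247 were higher in Y665F than in Y665H (1.27%) and 778 were lower (4.01%). The median log2 fold change of all genes was -0.011. With the adjusted p alone, 2040 genes were higher (10.5%) and 2975 lower (15.3%), and the fold minimum thus removed a larger share of the higher genes. In 164 of the 247 higher genes every Y665F library lay above every Y665H library, and in 115 of the 778 lower genes every Y665F library lay below. The calls were made on the same difference, and the share over all genes tested is not given here, so these counts only describe the calls. Without Y665H replicate 1, 300 genes were higher (1.55%) and 1011 lower (5.23%), and these held 221 of the 247 and 755 of the 778 genes. Among the lists described below, T cell lists held most of the members called higher, and the erythroid and cell cycle lists most of those called lower.

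**Figure D1:**
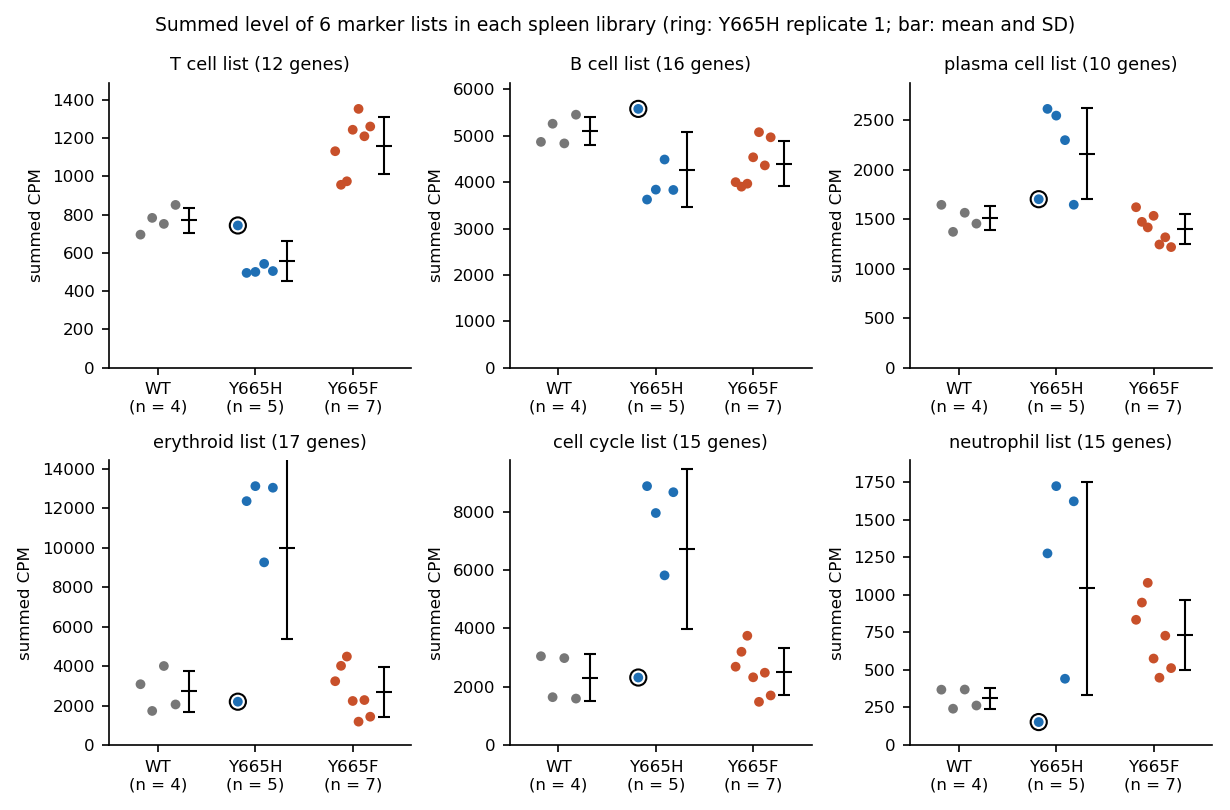
Summed CPM of 6 marker lists in each spleen library, by genotype, with the mean and SD (black) and Y665H replicate 1 ringed. The 7 Y665F libraries lie above every other library for the T cell list, while Y665H replicates 2 to 5 lie above every other library for the erythroid and cell cycle lists and replicate 1 lies among WT and Y665F.

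T cell genes were higher in the Y665F spleens. The 12-gene list holds the CD3 chains of the T cell receptor complex and the proteins that carry its signal. All members passed with the adjusted p alone and 7 were called, with a list median of 1.03 on the log2 scale. Summed over the list, the level was 743, 495, 501, 543 and 505 CPM in Y665H replicates 1 to 5. It was 956 CPM in the lowest, 1209 CPM in the median and 1352 CPM in the highest Y665F library, and between 695 and 851 CPM in WT. The groups did not overlap in this sum, and Y665H replicate 1 alone reached the WT range. The number called was 11 without Y665H replicate 1 and 4 without Y665F replicate 5. In bulk tissue, more T cells and more RNA per T cell cannot be told apart.

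Cd3e, a signaling chain of the T cell receptor, was at 40.1, 24.7, 26.2, 30.04 and 27.8 CPM in Y665H. In Y665F its lowest, median and highest levels were 75.9, 79.3 and 89.5 CPM. The 2 groups did not overlap, and the log2 fold change was 1.44 (SE 0.11, adjusted p = 1.38e-07). Thy1, a surface protein of all mouse T cells, gave 1.30 (SE 0.12) and Cd3d gave 1.11 (SE 0.12), again with no overlap. Y665H replicate 1 was the highest of its group for these 3 genes.

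The CD8 chains were called higher and Cd4 was not. Cd8a was at 72.2, 65.5, 64.2, 69.3 and 51.3 CPM in Y665H and at 133, 170 and 198 CPM in the lowest, median and highest Y665F libraries. Its log2 fold change was 1.39 (SE 0.09, adjusted p = 4.35e-08). Cd8b1, which encodes the partner chain in the CD8 heterodimer of conventional cytotoxic T cells, was at 35.4, 26.0, 23.6, 26.2 and 25.1 CPM against 66.2, 94.2 and 110 CPM, a log2 fold change of 1.75 (SE 0.12). Neither gene overlapped between the groups. Cd4, the coreceptor of helper and regulatory T cells, was at 130, 86.3, 80.0, 93.3 and 86.2 CPM in Y665H and at 115, 140 and 166 CPM in Y665F. These ranges overlapped through Y665H replicate 1, and the log2 fold change of 0.60 (SE 0.11, adjusted p = 0.00114) was not called. Whether the changes of Cd8a and Cd4 differ from each other was not tested.

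**Figure D2:**
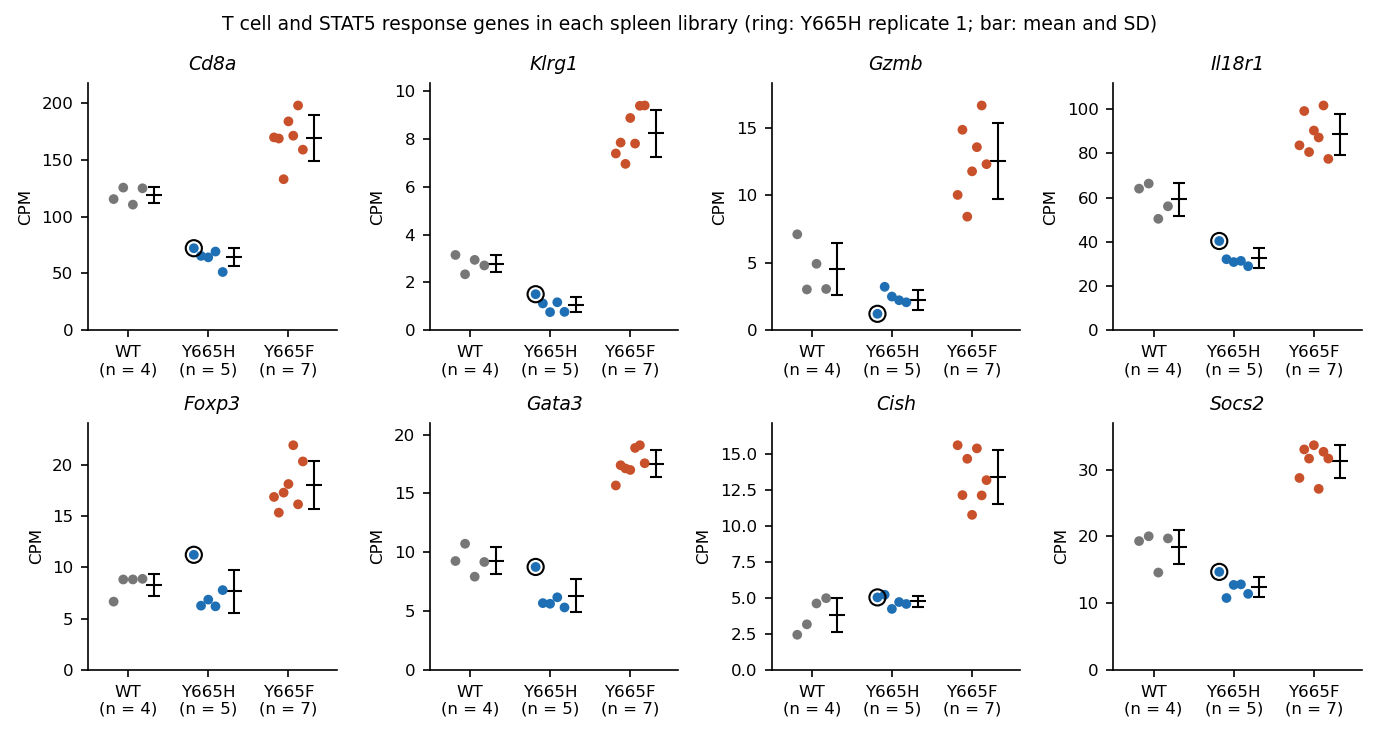
CPM of 8 T cell and STAT5 response genes in each spleen library, by genotype, with the mean and SD (black) and Y665H replicate 1 ringed. All 7 Y665F libraries lie above all 5 Y665H libraries for each gene, and Klrg1 and Gzmb show the widest separation.

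Effector genes of cytotoxic lymphocytes were higher as well. Of 26 genes listed, 21 passed with the adjusted p alone, 8 were called higher and none was called lower, with a median of 0.89. Klrg1, an inhibitory receptor of terminally differentiated effector cells, was at 1.51, 1.12, 0.759, 1.17 and 0.769 CPM in Y665H. It was at 6.96, 7.85 and 9.40 CPM in the lowest, median and highest Y665F libraries and at 2.34 to 3.15 CPM in WT. The WT libraries lay between the mutant groups, and the log2 fold change between the mutants was 2.94 (SE 0.16, adjusted p = 2.59e-09).

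Gzmb, the granzyme that starts apoptosis in target cells, was at 1.22, 3.22, 2.498, 2.23 and 2.07 CPM in Y665H and at 8.42, 12.3 and 16.7 CPM in Y665F (log2 fold change 2.47, SE 0.25, adjusted p = 3.66e-06). Il18r1, the ligand-binding chain of the IL-18 receptor, was at 40.4, 32.1, 30.8, 31.4 and 28.9 CPM against 77.5, 87.1 and 102 CPM (1.44, SE 0.10). Nkg7, a granule protein of cytotoxic cells, was at 12.9, 14.9, 15.2, 13.2 and 12.3 CPM against 27.8, 37.5 and 42.4 CPM (1.41, SE 0.11). S1pr5, a receptor by which effector and NK cells leave tissue, had a log2 fold change of 1.36 (SE 0.17). None of these 4 genes overlapped between the groups. Gzma, a granzyme that NK cells express strongly, was called at 1.48 (SE 0.33, adjusted p = 0.00309), but its lowest Y665F library, at 9.93 CPM, lay within the Y665H range of 5.20 to 13.9 CPM.

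The killer lectin-like receptors, by which NK cells and some CD8+ T cells recognize their targets, were higher in part. Of 14 members tested, 8 passed with the adjusted p alone and 5 were called higher, with a median of 0.67. The count was 3 without any one of WT replicates 1 and 2, Y665H replicates 1 and 5 and Y665F replicates 2, 5 and 6. Klrd1, which pairs with the NKG2 receptors, was at 22.4, 18.1, 19.2, 21.8 and 17.2 CPM in Y665H and at 33.7, 41.3 and 50.2 CPM in Y665F (1.09, SE 0.11, adjusted p = 3.11e-06). The WT libraries were at 37.1 to 46.2 CPM, within the Y665F range. Klrk1, the NKG2D receptor, was at 30.8, 38.5, 35.1, 40.0 and 24.2 CPM against 47.5, 68.7 and 86.2 CPM and lay just past the threshold (1.02, SE 0.15). It was one of the calls lost without each of those libraries, Y665H replicate 1 among them (0.96). Klrb1c, the NK1.1 antigen, was not called (0.71, SE 0.23, adjusted p = 0.0283) and overlapped. Of the 9 genes of the NK cell list only Gzma and Nkg7, which T cells express too, were called, and the list median was 0.23. Some genes of the lectin cluster are close copies of each other, so that reads may have been split or lost among those copies, which are uncertain singly.

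Naive and central memory T cell genes were higher too. All 16 members passed with the adjusted p alone, 5 were called and the median was 0.82. Dapl1, a gene of resting CD8+ T cells, was at 5.39, 3.68, 2.28, 3.19 and 3.08 CPM in Y665H and at 15.8, 20.6 and 25.5 CPM in Y665F (2.54, SE 0.17, adjusted p = 4.33e-08). Txk, a kinase of T cell signaling, gave 1.16 (SE 0.11). Bcl2, which protects resting lymphocytes from apoptosis, was at 205, 152, 136, 161 and 161 CPM against 266, 302 and 323 CPM and, at 0.85 (SE 0.09), was not called. Both naive and effector genes were therefore higher in the same libraries.

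Among 19 regulatory T cell genes, 15 were higher and 1 lower with the adjusted p alone, and 6 were called higher, with a median of 0.81. Foxp3, the transcription factor that defines these cells, was at 11.2, 6.27, 6.86, 6.21 and 7.79 CPM in Y665H and at 15.3, 17.3 and 21.9 CPM in Y665F (1.23, SE 0.14, adjusted p = 1.57e-05). Itgae, the CD103 integrin, was at 16.6, 13.9, 16.4, 15.1 and 17.1 CPM against 30.8, 37.4 and 39.2 CPM (1.17, SE 0.08). Ikzf2, the Helios factor, gave 0.88 (SE 0.08) and was not called. The member called lower, Il1rl1, was at 11.9, 59.7, 52.6, 34.4 and 53.2 CPM in Y665H, and replicate 1 was far below the others of its group. Its log2 fold change was just past the threshold and it lost its call without any of 9 single libraries and was named after its values were seen.

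A pair of neighboring genes on chromosome 7 gave some of the largest differences. 5830411N06Rik (chr7:140247279-140300734) and Cd163l1 (chr7:140197218-140231145) encode scavenger receptors of the WC1 and CD163 family, which mark gamma-delta T cells. 5830411N06Rik was at 1.67, 1.32, 1.52, 1.17 and 1.07 CPM in Y665H, at 14.7, 16.9 and 20.8 CPM in Y665F and at 1.70 to 3.07 CPM in WT. Its log2 fold change of 3.64 (SE 0.16, adjusted p = 1.95e-10) was the largest among the T cell lists. Cd163l1 was at 1.83, 1.15, 1.61, 1.32 and 1.00 CPM against 9.28, 11.7 and 14.3 CPM (3.10, SE 0.16, adjusted p = 1.60e-09). The gamma-delta and innate-like list holds 12 genes, of which 8 were tested, and no further gene among these was called. The other members were not tested and cannot be read here. The genes are related in sequence, and whether reads were shared between them is uncertain.

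Of the 13 genes of the helper T cell lineages, Gata3 was called higher and Il21 lower. Gata3, a factor required for T cell development and for type-2 helper cells, was at 8.76, 5.68, 5.63, 6.18 and 5.32 CPM in Y665H and at 15.7, 17.4 and 19.1 CPM in Y665F (1.47, SE 0.12, adjusted p = 2.08e-07). Il21, the cytokine of follicular helper T cells, was at 1.80, 1.32, 1.77, 1.96 and 1.71 CPM against 0.469, 0.688 and 1.18 CPM (-1.13, SE 0.28, adjusted p = 0.00645). The groups did not overlap, at levels near 1 CPM.

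Genes that STAT5 induces were read from a list of 20 feedback inhibitors, survival genes and effectors. With the adjusted p alone 12 were higher and 1 lower, 5 were called higher and 1 lower, and the median was 0.57. Some members, Gzmb and Il2ra among them, are counted in other lists here too. Cish, a feedback inhibitor and one of the most direct STAT5 targets, was at 5.04, 5.22, 4.24, 4.71 and 4.58 CPM in Y665H and at 10.8, 13.2 and 15.6 CPM in Y665F (1.49, SE 0.15, adjusted p = 2.89e-06). WT spleens were at 2.44 to 4.98 CPM, and the difference between Y665H and WT did not pass the test (0.32, adjusted p = 0.218). Socs2, another feedback inhibitor, was at 14.7, 10.8, 12.7, 12.8 and 11.4 CPM against 27.1, 31.7 and 33.6 CPM (1.32, SE 0.10), with WT at 14.6 to 20.02 CPM. Ccnd2, a cyclin that STAT5 induces in lymphocytes, was at 222.8 to 274.6 CPM against 440 to 495 CPM (0.91, SE 0.06) and was not called, although no library overlapped. The member called lower was Bcl2l1, a survival gene that red cell precursors also express strongly, at 45.6, 95.9, 158, 107 and 134 CPM against 41.3 to 59.6 CPM (-1.11). It was not called without Y665H replicate 3 and was named after its values were seen, as was Socs1, which was called higher at 1.07.

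The promoters of these genes were searched for TTCNNNGAA, the palindrome that STAT5 binds, in the RefSeq windows of 250 bases before to 50 after each start on GRCm38.p6. The motif reads the same on both strands, so 1 search covers both, and copies may overlap. It was present in 4 of the 16 STAT5 response genes with a window (25%), namely Cish, Gzmb, Lta and Socs3, in 1 of 8 T cell genes with a window and in none of 14 erythroid genes. Of all 27025 RefSeq genes with a window, 9.55% held it, and of the 14069 genes with a window that were tested in spleen 8.76% did. A match is a description of the letters and not a binding site. Of the 107 genes with a window that the rule given below names, 15 held it (14%). Among these were genes called higher, Gfi1b, which was called lower, and Irf8, which was not called. The stretches of 3 genes called higher are shown as examples, with the motif in capitals. Il18r1 and Il7r are not members of the STAT5 response list, and for Il18r1 the stretch is 1 of 3 starts in the table.
Cish, chr9:107296654-107296683, plus strand: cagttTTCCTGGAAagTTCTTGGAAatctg
Il18r1, chr1:40465756-40466005, plus strand: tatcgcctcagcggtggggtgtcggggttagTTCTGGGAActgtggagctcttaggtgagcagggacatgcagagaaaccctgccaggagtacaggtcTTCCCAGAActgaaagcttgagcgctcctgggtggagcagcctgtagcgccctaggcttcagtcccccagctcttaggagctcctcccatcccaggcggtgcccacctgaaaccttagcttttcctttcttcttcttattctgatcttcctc
Il7r, chr15:9529877-9530126, minus strand: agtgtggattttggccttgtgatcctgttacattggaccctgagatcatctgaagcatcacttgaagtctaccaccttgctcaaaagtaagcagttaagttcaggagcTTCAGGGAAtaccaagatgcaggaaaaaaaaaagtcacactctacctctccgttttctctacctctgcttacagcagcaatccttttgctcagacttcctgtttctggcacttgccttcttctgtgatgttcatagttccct

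Receptors that signal through STAT5 did not move together. Of 18, 3 were called higher, namely Il2ra (1.64), Il2rb (1.42) and Il7r (1.20), and 2 lower. Il9r, the receptor of IL-9, was at 55.5, 57.3, 53.0, 46.7 and 59.8 CPM in Y665H and at 15.4, 20.1 and 23.9 CPM in Y665F, with WT between them at 27.0 to 45.9 CPM (-1.46, SE 0.12, adjusted p = 2.26e-07). Epor, the erythropoietin receptor, was at 8.85, 28.4, 35.6, 22.3 and 32.2 CPM in Y665H and at 4.63 to 13.2 CPM in Y665F (-1.57, SE 0.36) and was named after its values were seen. Y665H replicate 1 lay within the Y665F range for Epor but not for Il9r. None of the 15 kinases, STATs and phosphatases of the JAK-STAT pathway was called. With the adjusted p alone 7 were higher and 1 lower. Stat4 (0.65), Jak1 (0.24) and Stat5a (0.21) were among the higher genes.

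Interferon-induced genes were higher in part, by small folds. Of 37, 18 were higher and 2 lower with the adjusted p alone, where 10.5% of all genes tested were higher and 15.3% lower. With the fold minimum 1 was called in each direction, and the median was 0.33. Gbp2b, a guanylate-binding protein, was at 2.41, 1.98, 1.83, 1.76 and 1.07 CPM in Y665H and at 4.898, 6.04 and 8.15 CPM in Y665F (1.75, SE 0.23, adjusted p = 4.40e-05). It has a close paralog, and reads may have been split between them. Zbp1, a sensor of nucleic acid, was at 29.9 to 43.5 CPM against 53.6 to 72.1 CPM (0.79), Gbp4 at 115 to 162 CPM against 189 to 241 CPM (0.70) and Oas2 at 23.4 to 36.8 CPM against 39.2 to 56.8 CPM (0.87). These 3 genes did not overlap but were not called. Gbp4 overlaps exons of annotated neighbors of its family on the same strand, as Foxp3, Gata3, Klrb1c, Mzb1, Slpi and Stat4 overlap other annotated genes, so that their counts are uncertain to that extent. The member called lower was Rsad2 (-1.47), named after its values were seen. Without Y665H replicate 1, 2 interferon-induced genes were called lower.

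**Figure D3:**
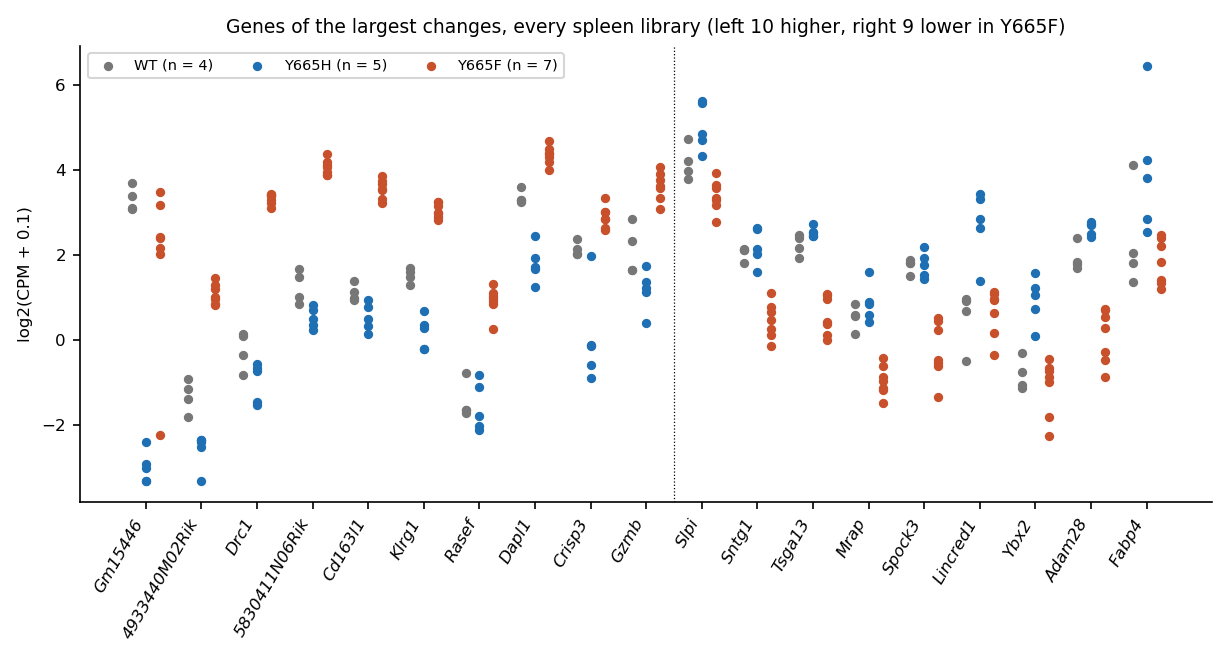
Levels as log2(CPM + 0.1) of the 10 called genes with the largest rise and 9 of those with the largest fall, in every spleen library. Y665F replicate 4 sits beside the Y665H libraries for Gm15446, and Y665H replicate 5 stands above all others for Fabp4.

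Several genes with the largest folds belong to no list. They were taken by size of fold from the called genes whose groups did not overlap and whose mean over the 12 libraries reached 1 CPM. Gm15446, a predicted gene on chromosome 5 (chr5:109933563-109941710), was at 0.0321, 0.0244, 0, 0.0878 and 0 CPM in Y665H, which is 5 reads over the 5 libraries. It was at 8.39 to 12.8 CPM in WT. In 6 of the Y665F libraries it was at 3.94 to 11.1 CPM, but in Y665F replicate 4 it was at 0.113 CPM, or 3 reads, so that 1 Y665F spleen was as low as the Y665H spleens. Its log2 fold change of 7.36 (SE 0.90, adjusted p = 2.66e-05) depends on how so few reads are handled.

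Drc1, which encodes a part of the dynein regulatory complex of cilia (chr5:30281335-30366695), was at 0.577, 0.244, 0.538, 0.264 and 0.501 CPM in Y665H, at 0.468 to 1.00 CPM in WT and at 8.48, 10.4 and 10.8 CPM in Y665F. Its spread within Y665F was small beside the log2 fold change of 4.57 (SE 0.20, adjusted p = 1.95e-10). 4933440M02Rik, a gene of unassigned function, was at 0 to 0.0962 CPM in Y665H, or 12 reads in all, against 1.67, 1.91 and 2.66 CPM in Y665F (4.76, SE 0.31). Rasef was at 0.128 to 0.464 CPM against 1.09 to 2.40 CPM (2.78, SE 0.30). Crisp3, a secreted cysteine-rich protein, was at 0.802, 0.439, 0.822, 3.84 and 0.5683 CPM against 5.88 to 10.01 CPM (2.52, SE 0.39), with Y665H replicate 4 above the rest of its group.

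On the lower side, Adam28, a membrane metalloprotease of lymphocytes (chr14:68604998-68655889), was at 6.74, 5.54, 5.28, 6.53 and 6.49 CPM in Y665H and at 0.448, 1.11 and 1.55 CPM in Y665F (-2.55, SE 0.23, adjusted p = 8.04e-07). WT was at 3.16 to 5.15 CPM, between the groups. Tsga13 was at 5.32 to 6.52 CPM against 0.8997 to 2.002 CPM (-1.97, SE 0.18), Spock3 at 2.62 to 4.49 CPM against 0.291 to 1.32 CPM (-2.06, SE 0.25) and Sntg1 at 2.95 to 6.10 CPM against 0.811 to 2.06 CPM (-1.83, SE 0.21). In these 3 genes and in Mrap, an accessory protein of melanocortin receptors (-2.04, SE 0.24), WT was near Y665H, with a log2 difference between Y665H and WT of at most 0.40. Lincred1, a noncoding RNA, and Ybx2, a germ cell protein that binds nucleic acid, were instead near WT in Y665F and higher in Y665H. Lincred1 was at 2.502, 6.12, 10.8, 7.12 and 9.83 CPM in Y665H and at 0.688 to 2.10 CPM in Y665F (-2.23, SE 0.32). Slpi, an inhibitor of neutrophil proteases, was at 20.2, 49.6, 48.2, 26.1 and 29.0 CPM against 6.82, 10.1 and 15.2 CPM (-1.69, SE 0.23).

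Genes of red cell formation were lower in the Y665F spleens and made up the list with the most members called lower. Of 17 erythroid genes tested, 14 were called lower in Y665F and none higher, with a median of -1.87. Summed over the list, the level was 2195 CPM in Y665H replicate 1 and 12360, 13120, 9258 and 13040 CPM in replicates 2 to 5. It was 1184, 2279 and 4484 CPM in the lowest, median and highest Y665F libraries and 1727 to 4004 CPM in WT. All Y665H libraries but replicate 1 were therefore above every other spleen, and replicate 1 was within the WT and Y665F ranges. Without replicate 1, 16 genes were called and the median was -2.16. The globin genes had rows in the files but were at most at 0.244 CPM in any mutant library, so that globin mRNA could not be read from these counts.

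Slc4a1, the anion exchanger of the red cell membrane, was at 447, 2310, 2725, 1873 and 2546 CPM in Y665H and at 231, 390 and 792 CPM in Y665F (-2.04, SE 0.39, adjusted p = 0.00116). Sptb, the beta chain of red cell spectrin, was at 190.9, 865, 907.3, 604.5 and 962.4 CPM against 89.76, 149.6 and 297.8 CPM (-1.93, SE 0.38). Alas2, the enzyme that starts heme synthesis in red cell precursors, was at 205, 919, 1553, 1089 and 1153 CPM against 157, 248 and 433 CPM (-1.80, SE 0.34). These 3 genes overlapped between the groups through Y665H replicate 1 alone. Without it the log2 fold changes were -2.32, -2.20 and -2.08.

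Cell cycle genes followed the same libraries. All 15 were lower with the adjusted p alone and 12 were called, with a median of -1.22 (-1.41 and 14 called without Y665H replicate 1). The summed level was 2312, 8869, 7948, 5812 and 8661 CPM in Y665H replicates 1 to 5 and 1479 to 3743 CPM in Y665F. Mki67, which is expressed in dividing cells, was at 1211, 5323, 4597, 3333 and 5344 CPM in Y665H and at 671, 1271 and 1971 CPM in Y665F (-1.64, SE 0.32, adjusted p = 0.0013). Cdk1, the kinase that drives mitosis, was at 38.5, 127, 128, 98.2 and 118 CPM against 25.2, 39.5 and 60.3 CPM (-1.33, SE 0.26). Plk1 (-1.22) and Aurkb (-1.06), kinases of mitosis, were called too. The erythroid list and the cell cycle list were high in the same 4 libraries, and which cells divided in them was not tested.

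Germinal center B cell genes were lower in Y665F. Of 9 genes, 7 were lower with the adjusted p alone and 3 were called, with a median of -0.69. Mybl1, a transcription factor of dividing germinal center cells, was at 38.4, 26.4, 32.4, 28.9 and 53.1 CPM against 9.63, 14.2 and 19.2 CPM (-1.41, SE 0.24). Nuggc, a nuclear GTPase of the same cells, was at 14.1, 8.64, 11.5, 9.72 and 14.5 CPM against 3.24, 4.31 and 6.04 CPM (-1.38, SE 0.21). In contrast to the erythroid genes, Y665H replicate 1 was high here, and no library overlapped for these 2 genes.

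Other B lineage genes were not called. Of the 16 general B cell genes, 1 passed with the adjusted p alone, and the list summed to 5579, 3625, 3839, 4488 and 3832 CPM in Y665H and to 3903 to 5077 CPM in Y665F. Cr2, the complement receptor of marginal zone and follicular B cells, was at 1177, 986, 930, 1071 and 1075 CPM against 723, 807 and 903 CPM (-0.39, SE 0.08), and Myof was at 124 to 136 CPM against 82.8 to 97.6 CPM (-0.53, SE 0.05). Jchain, which joins secreted IgA and IgM, was at 1099, 2022, 1929, 1674 and 1125 CPM against 664, 871 and 1070 CPM (-0.88, SE 0.15), and Mzb1, a chaperone of antibody secretion, gave -0.58 (SE 0.11). These 4 genes did not overlap between the groups, though their folds were under the threshold. Without Y665H replicate 1 Jchain lay just past it and was the 1 plasma cell gene called.

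Granulocyte genes were variable within both groups. None of 15 neutrophil genes was called and 1 passed with the adjusted p alone, while the list sum ranged from 153 CPM in Y665H replicate 1 and 441 CPM in replicate 4 to 1724 CPM in replicate 3, against 448 to 1080 CPM in Y665F. S100a8, a calcium-binding protein of neutrophils, was at 18.5, 230, 307, 78.9 and 266 CPM in Y665H and at 58.9, 110 and 155 CPM in Y665F (-0.81, SE 0.43, adjusted p = 0.187). Without Y665H replicate 1, 3 members were called lower and S100a8 gave -1.12. Mcpt8 and Prss34, proteases of basophils and mast cells, were called higher at 1.06 and 1.04, but both overlapped between the groups and their calls were not stable. Mcpt8 was not called without any one of Y665H replicates 1, 2, 4 and 5 and Y665F replicates 1, 2, 3 and 6, nor Prss34 without any one of Y665H replicates 1 and 4 and Y665F replicates 1 and 3.

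Macrophage genes were lower in part. Of 16, 8 were lower with the adjusted p alone, 1 was called (2 without Y665H replicate 1, and also 2 without Y665F replicate 2) and the median was -0.51. Cd163, the hemoglobin scavenger receptor of red pulp macrophages, was at 44.7, 89.6, 94.2, 70.3 and 74.0 CPM in Y665H, at 21.2, 26.4 and 37.3 CPM in Y665F and at 65.2 to 78.8 CPM in WT (-1.41, SE 0.17, adjusted p = 1.68e-05). It did not overlap, and its lower level was on the Y665F side, since Y665H and WT differed by 0.02. Timd4, a receptor for dying cells, was at 53.0 to 76.1 CPM against 39.4 to 48.7 CPM (-0.44, SE 0.08), and Spic, the transcription factor of red pulp macrophages, gave -0.60 (SE 0.13). Neither was called. None of the 11 megakaryocyte genes was called, and Itgb3, an integrin chain of platelets (0.60), was higher with the adjusted p alone and without overlap.

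Genes of fat cells and heat shock genes were led by single libraries. Of 12 pancreas and fat genes, 5 were called lower, namely Cfd (-3.97), Cidec (-3.63), Adipoq (-2.87), Plin1 (-2.54) and the elastase Cela1 (-1.16), the last 2 named after their values were seen. Cfd, a secreted protein of fat cells, was at 20.8, 3.32, 3.51, 6.97 and 96.4 CPM in Y665H and at 0.515 to 3.38 CPM in Y665F, and Fabp4, the fatty acid carrier of fat cells and one of the 10 genes with the largest fall, was at 18.7, 7.08, 5.75, 13.9 and 87.3 CPM against 2.19, 3.46 and 5.41 CPM (-2.84, SE 0.61). Y665H replicate 5 was the highest library for both and for Adipoq and Cidec. Without it 3 of the 12 were called. The direction of the list as a whole rested on Y665H replicate 2: its median was -1.89 with all libraries and 1.03 without that one, with 2 genes called higher and 4 lower. Hspa1a and Hspa1b, the inducible heat shock genes, were called lower at -2.26 and -2.07, with Y665H replicate 2 at 11.0 and 17.8 CPM and the other Y665H libraries at most at 2.27 CPM. Without that library neither was called, and no gene of the heat shock and immediate early list was.

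Receptors that guide and restrain lymphocytes rose in part, and the remaining lists held few calls. Of 16 chemokine and trafficking receptors, 12 were higher with the adjusted p alone and 3 were called, with a median of 0.51. Gpr15, a receptor that draws T cells to the gut, was at 1.15, 1.24, 1.49, 1.11 and 1.24 CPM in Y665H and at 3.02, 3.92 and 5.14 CPM in Y665F (1.68, SE 0.16, adjusted p = 1.53e-06). Of 18 checkpoint and costimulatory genes, 13 were higher with the adjusted p alone and 4 were called, with a median of 0.75. Tnfsf8, the CD30 ligand, was at 15.1, 11.3, 14.2, 12.9 and 14.1 CPM against 31.1, 33.7 and 37.4 CPM (1.32, SE 0.08), and Cd96, a receptor for nectins, gave 1.25 (SE 0.14). Neither gene overlapped. No gene was called among 9 marginal zone and follicular B cell genes (median -0.23), 10 plasma cell genes (-0.36), 10 monocyte genes (0.25), 12 dendritic cell genes (0.14), 13 stroma genes (-0.23) and 8 endothelium genes (-0.29), where 1 was called lower without Y665H replicate 1 and also without any one of Y665H replicates 3 and 4 and Y665F replicate 3. With the adjusted p alone, 4 of the marginal zone and follicular and 6 of the plasma cell genes were lower in edgeR. So were 4 of the stroma and 3 of the endothelium genes. Higher were 4 of the monocyte, 2 of the dendritic cell, 1 of the plasma cell and 1 of the stroma genes. Of 11 stem and progenitor cell genes 1 was called, Gfi1b, a factor that red cell and platelet precursors also use (-1.39, SE 0.42), and it was not called without any of Y665H replicates 2, 3 and 5. Without Y665H replicate 1 the number called higher was 9 of the cytotoxic effector, 6 of the naive and central memory T cell, 7 of the regulatory T cell, 4 of the chemokine receptor and 6 of the checkpoint and costimulation genes, and 1 of the eosinophil, basophil and mast cell genes was called lower.

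**Figure D4:**
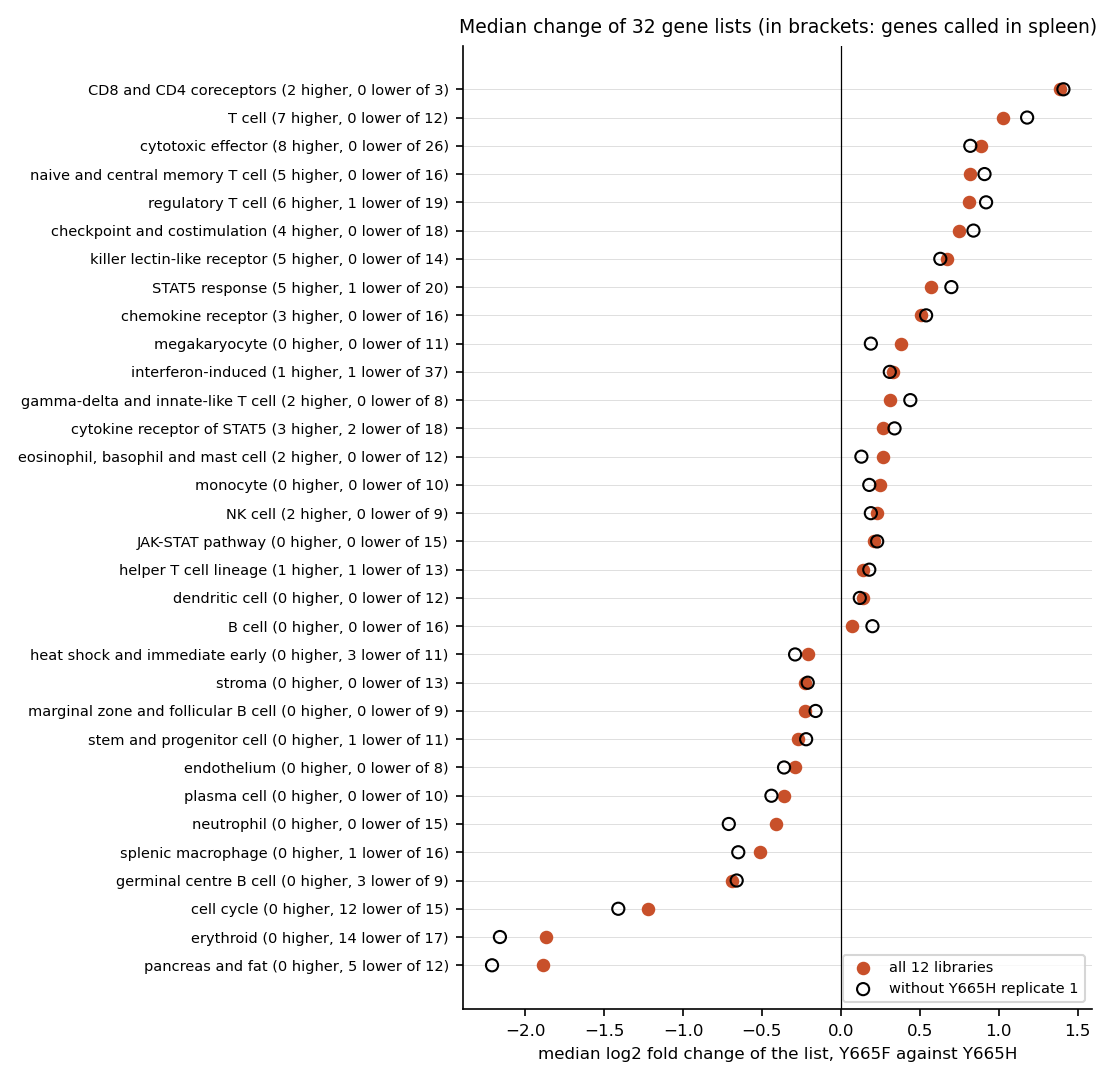
Median log2 fold change of Y665F against Y665H for 32 gene lists, with all 12 libraries (filled) and without Y665H replicate 1 (open), and in brackets the number of genes called. The T cell lists lie above 0 and the erythroid and cell cycle lists below -1, as does the pancreas and fat list, whose median is 1.03 without Y665H replicate 2 (not drawn), and leaving out the library moves the erythroid median from -1.87 to -2.16.

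To see which T cell genes differed beyond the general rise of T cell transcripts, the libraries were rescaled so that the 12-gene T cell list had the same mean level in all of them. This moves all other genes down, with a median of -1.084 over all genes, 37 genes called higher (0.191%) and 11094 lower (57.1%), so it is read only for the 109 tested genes of the T cell lists. Of these, 5 were called higher and 14 lower, against 36 and 2 with the usual scaling, and their median moved from 0.82 to -0.26. The 12 scaling genes are among the 109, and the scaling sets their mean level equal in all libraries. They went from 7 called to 0, so part of the fall in calls and in the median was fixed in advance. Those called higher on this scale were 5830411N06Rik (2.59), Cd163l1 (2.05), Klrg1 (1.89), Dapl1 (1.49) and Gzmb (1.35). Cd8b1 was at 0.69 and Il2ra at 0.61, below the fold threshold. Foxp3 was at 0.18 (adjusted p = 0.11), Il7r at 0.14 (adjusted p = 0.25) and Klrd1 at 0.03 (adjusted p = 0.86), and these 3 did not pass the test on this scale. Cd4 was at -0.46. With Cd3d, Cd3e, Cd3g and Cd247 alone as the scale, Klrg1 was at 1.85 and Gzmb at 1.31.

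Against WT, Y665F had 111 genes called higher (0.572%) and 122 lower (0.628%), and Y665H had 763 higher (3.93%) and 85 lower (0.438%). These comparisons share libraries with each other and with the one above. The T cell list had a median of 0.72 in Y665F and of -0.43 in Y665H against WT. The erythroid list had a median of 0.16 in Y665F, with 0 of 17 called, and of 1.95 in Y665H, with 14 called higher. The cell cycle list had 0.17 with 0 called and 1.38 with 14 of 15 called higher. The neutrophil list had 7 of 15 members called higher in Y665F and 12 in Y665H. Its sum was 241.8 to 369.5 CPM in WT and 448 to 1080 CPM in Y665F. Y665H replicate 1, at 153 CPM, was below every WT library, while replicates 2 to 5 were at 1276, 1724, 441 and 1623 CPM. The killer lectin list had 0 called higher and 1 lower in Y665F and 8 lower in Y665H. The WT files list 0 reads as not aligned and those of the mutants 95747 to 158811, so the WT files were handled differently in at least this respect, and its part in these values was not tested.

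Isolated T cells of the same genotypes, cultured with IL-2 and IL-7 and sequenced in 4 libraries each, were compared in a separate fit. That fit also held 4 libraries of WT T cells with these interleukins and 3 of Y665F T cells without them. The spread was estimated over all 15. Between the mutants with interleukins, 765 of 22313 genes were higher in Y665F (3.43%) and 301 lower (1.35%). The culture and the isolation differ between the materials together and cannot be told apart, and the T cell libraries were shallower. Slc4a1 was at 0.286 to 4.86 CPM in the Y665H and at 0.594 to 237.9 CPM in the Y665F T cell libraries. These libraries thus also held erythroid transcripts to unequal amounts. The 16 genes of the general B cell list had a median of 2.37 there, with 8 called higher in Y665F and 0 lower. B cell transcripts were thus unequal as well, and the part of such transcripts in the values below was not tested. Of the 247 genes called higher in spleen, 239 were tested in the T cells and 36 were called higher there, which is 14.6% of the spleen genes and 4.71% of the T cell genes, while 18 were called lower. Of the 778 called lower in spleen, 6 were called lower in T cells, or 0.771% and 1.99%, and 106 were called higher.

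An interaction contrast over all 31 libraries tested whether the difference between the mutants itself differed between the materials. It did so for 3323 of 22884 genes (14.5%), among them 91 of the spleen-higher and 367 of the spleen-lower genes. Klrg1 rose in both materials (2.61 in T cells, interaction 0.35, adjusted p = 0.727), as did Il2ra, Cish, Socs2, 5830411N06Rik and Cd163l1, and their interactions did not pass. Gzmb rose more in T cells, from 2.00 to 20.9 CPM in Y665H to 210 to 593 CPM in Y665F (4.71, interaction -2.22, adjusted p = 0.00311). Il7r went in opposite directions, with 1070 to 1538 CPM in Y665H and 231 to 459 CPM in Y665F T cells (-1.95, interaction 3.20), and Itgae likewise (-2.59, interaction 3.84). Mki67 was lower in Y665F spleen and higher in Y665F T cells (2.16, interaction -3.76). Cd3e, at 0.12 in T cells, was not called there, and its interaction of 1.37 passed.

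**Figure D5:**
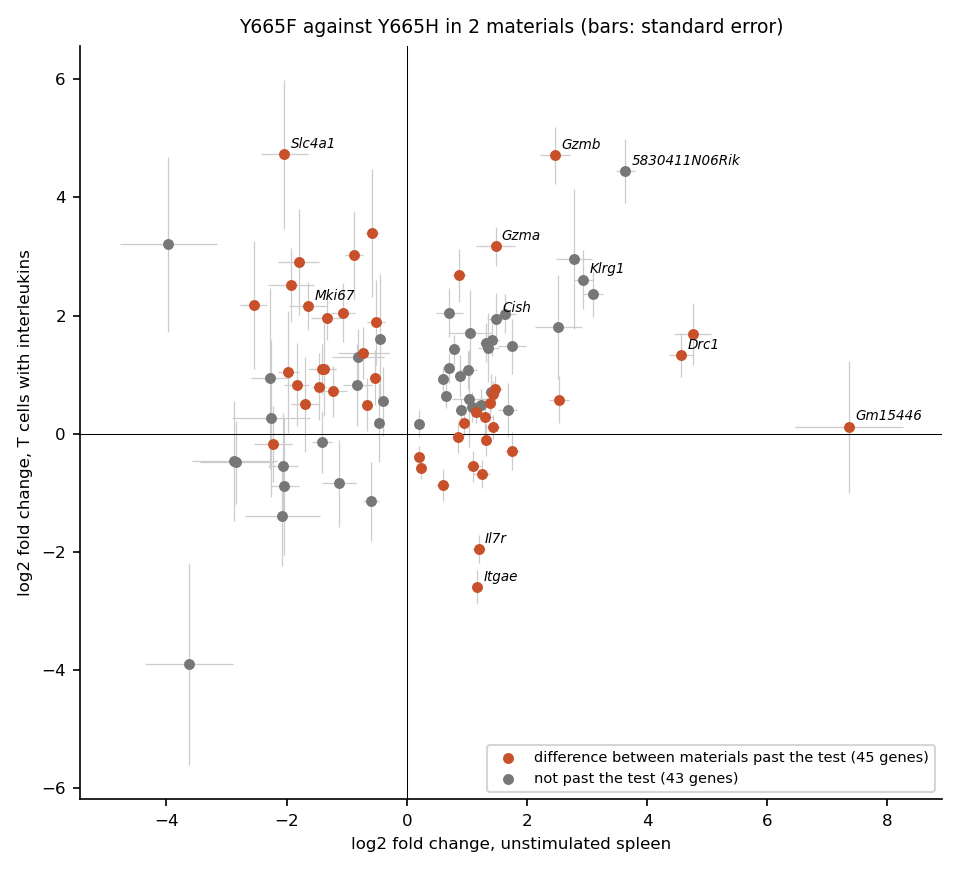
Log2 fold change of Y665F against Y665H in unstimulated spleen (horizontal) and in T cells cultured with interleukins (vertical) for 88 named genes, with standard errors as bars. Klrg1, 5830411N06Rik and Gzmb lie at the upper right, Il7r and Itgae are higher in spleen and lower in T cells, and Mki67 is lower in spleen and higher in T cells.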

How the data were processed

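RNA-seq counts of 16 unstimulated spleens and 15 libraries of splenic T cells were analysed. Library preparation used total RNA depleted of ribosomal RNA with a stranded kit. Per the study and the submitters' processing notes, the authors trimmed reads with Trimmomatic 0.36, aligned them to mm10 with STAR and counted reads per gene with HTSeq 0.9.1; FastQC 0.11.9, SAMtools 1.9 and Picard 2.9.2 are also named. The strand setting of the counting is not given in the sources used here, so a gene and its antisense partner may not be told apart. The deposited values are whole-number counts per gene symbol, without normalization, for 24421 genes and 5 closing lines. The closing lines, of which reads without a gene took 54.88% to 63.5% of all reads listed, entered neither library sizes nor tests.

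Groups were taken from the labels. Counts were fitted in R 4.3.3 with edgeR 4.0.16 (TMM, glmQLFit, glmQLFTest, limma 3.58.1 beneath it), over genes with at least 10 reads in all, with 1 spread for the 3 genotypes. P-values were adjusted by Benjamini-Hochberg over all genes of a fit, and a call needed an adjusted p below 0.05 with a fold past 1 on the log2 scale. SE was taken as log2 fold change over the root of the F statistic. T cells, and spleen with T cells for the interaction, were fitted separately. The pipeline was tested on simulated data for the spleen comparison, where it recovered 200 of 200 genes changed by 2 on the log2 scale among 19239 genes, with 1 false call. The simulated counts were drawn with the mean levels and spreads estimated here, and only genes of at least 1 CPM were changed. No library was made to stand apart, so the simulation does not cover such libraries or changes at low counts.

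Genes were named by a rule: the 10 largest rises and falls among calls without overlap whose mean reached 1 CPM, up to 4 members per list by smallest p, and genes the study names for spleen or as STAT5 targets. Others are marked in the text. The comparison and the 32 lists were chosen with earlier results of these data known. Alternatives were RLE size factors, DESeq2 1.42.0, filterByExpr, no filter, only the groups compared, the replicate number as a block, no fold minimum and leaving out each library. Replicate numbers were not used as pairs in the main fit: of 13 same-numbered pairs, 1 had deviations correlated above 0.1. Promoter windows are from RefSeq (GRCm38.p6) and exons from GENCODE (GRCm38); the guide and donor are the study's. At the lowest depth the limit that a count of 0 allows, 3 reads, is 0.124 CPM; it covers counting error only. Of 427 listed genes, 6 had no row under the symbol used and were not analysed here. Some genes that the rule names are not reported here.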

Additional observations from a re-analysis of the deposited data

Results flagged for a closer look

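A single library far from the rest of its group was looked for in 291 groups of 4 to 7 libraries, over the genes and lists described, and was found in 30. Chance gives such a library in about 1 of 20 groups, so a share of these is due to chance. Y665H replicate 1 was the library concerned for Cd3d (36.6 CPM), Cd8b1 (35.35), Cd4 (129.7), Il18r1 (40.35), Il7r (111.7), Txk (31.43), Gata3 (8.757), Gbp4 (161.7) and the summed T cell list (743.2 CPM), each time as the highest of its group. Y665H replicate 2 was the highest for Hspa1a (10.98 CPM), Hspa1b (17.76), Oas2 (36.77) and the summed heat shock and immediate early list (295.1 CPM). Y665H replicate 5 was the highest for Fabp4 (87.26 CPM), Cidec (21.03), Cfd (96.42) and Adipoq (27.35) and the lowest for 4933440M02Rik (0). Y665H replicate 4 was the highest for Crisp3 (3.836 CPM) and Timd4 (76.07), and Y665F replicate 3 for the summed pancreas and fat list (34.46 CPM). Among the WT spleens, replicate 1 stood apart for Rasef (0.4816 CPM), Fabp4 (17.19), Adam28 (5.149), Klrk1 (77.6) and Foxp3 (6.668), replicate 2 for Klrb1c (19.05), replicate 3 for Socs2 (14.59) and replicate 4 for Dapl1 (12.09) and Sntg1 (3.409).

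The difference between Y665F and Y665H was not the same in spleen and in T cells with interleukins for 45 of the 88 genes, by the interaction contrast in edgeR. Values here are the log2 fold change in spleen minus that in T cells. Of the T cell and trafficking genes it was above 0 for Il7r (3.2), Itgae (3.84), Cd8b1 (2.1), Dapl1 (1.99), Cd96 (1.97), Cd3d (1.7), Cd4 (1.5), Tnfsf8 (1.47), Cd3e (1.37), Thy1 (1.08), Bcl2 (0.96), Cd8a (0.92), Txk (0.85), Il18r1 (0.8), Cd226 (0.8) and Gata3 (0.77). It was also above 0 for Gm15446 (7.24), Drc1 (3.26), 4933440M02Rik (3.02), Jak1 (0.86) and Stat5b (0.67). It was below 0 for the granzymes Gzmb (-2.22) and Gzma (-1.63), for the cell cycle genes Mki67 (-3.76), Cdk1 (-3.2), Aurkb (-3.11) and Plk1 (-1.85) and for the erythroid genes Slc4a1 (-6.6), Alas2 (-4.56) and Sptb (-4.1). It was likewise below 0 for the B lineage genes Jchain (-3.7), Mzb1 (-3.51), Mybl1 (-2.33), Nuggc (-2.33) and Myof (-1.39), for Cxcr2 (-2.15) and S100a9 (-1.99), and for Adam28 (-4.65), Tsga13 (-2.53), Sntg1 (-2.52), Il9r (-2.32), Lincred1 (-2.14), Slpi (-1.97), Oas2 (-1.76) and Myh11 (-1.12). Many of the genes below 0 were near 0 CPM in some T cell libraries. The T cell libraries also held B cell and erythroid transcripts to unequal amounts, and the part of this in these values was not tested.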

How the results depend on the processing

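The count for Y665F against Y665H spleen (1025) lay between 909 and 1021 with RLE size factors, DESeq2, filterByExpr, no filter or only the libraries of the 2 groups, and between 813 and 1311 when single libraries were left out (188 to 300 higher, 590 to 1011 lower). With the replicate number as a block it was 653 (480 lower), and 103 for Y665F against WT spleen (233 as reported). Of 13 same-numbered pairs 1 correlated above 0.1. The 5 pairs of Y665F with Y665H were between -0.19 and 0.096. Whether same-numbered libraries share a batch cannot be read from these correlations and was not tested. Replicate numbers 6 and 7 occur only in Y665F, so with the block those libraries add nothing to the difference between genotypes. The cause of the loss was not tested further. The pancreas and fat median was -0.91 with the block. Without a fold minimum the counts were 5015 (2040 higher, 2975 lower), 2373 for Y665F against WT and 3837 for Y665H against WT, and the higher share of the calls between the mutants moved from 24.1% to 40.7%. Leaving out single libraries gave 137 to 351 for Y665F against WT, with 137 without WT replicate 1, 150 without WT replicate 2 and 351 without WT replicate 3, and 617 to 1095 for Y665H against WT spleen. For Y665F against Y665H T cells with interleukins (1066) it gave 557 to 1201, with 557 without Y665H replicate 4 and 689 without Y665F replicate 4, while DESeq2 gave 1475. Relative to the T cell list 18 to 20 genes were called. No alternative was run for the interaction. Of 145 named genes, 71 were called, 60 of them under every alternative. Irf8, which was not called at 0.04, changed sign without Y665F replicate 5 (-0.02) and was at 0 without Y665H replicate 2. Il21 (-0.98) and Aurkb (-0.94) fell under the fold minimum with the block.

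Genes under 0.124 CPM at the lowest depth rest on 3 reads or fewer, which limits the folds of Gm15446 and 4933440M02Rik.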

Other observations

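Alb, the serum albumin gene of liver cells, was read 3419 times in Y665F replicate 4, 598 times in WT replicate 1 and 509 times in WT replicate 4, against 5 to 268 reads in the other spleen libraries. Y665F replicate 4 was also the library with 3 reads of Gm15446, where the other Y665F spleens had 132 to 309.

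The WT mean lay between the means of both mutants for 209 of the 247 genes called higher in Y665F and for 331 of the 778 called lower, against 6208 of all 19418 genes tested. It lay below both mutant means for 21 of the 247 and for 412 of the 778, against 6572 of all genes tested. For those 412 genes the Y665F mean was thus above WT and the Y665H mean higher still. The choice of genes by the difference between the mutants bears on these counts, so they are given as a description.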
